A study of Homo sapiens with 6 samples.

Results

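The proteasome is the protein complex that degrades proteins tagged with ubiquitin, and its genes were read here in HK-2, a cell line grown from the proximal tubule of a human kidney, after exposure to cisplatin, a platinum drug that crosslinks DNA. The genes were taken by name: every protein-coding entry of the count table whose symbol begins with PSMA, PSMB, PSMC, PSMD, PSME, PSMF or PSMG followed by a number. This gave 49 entries of the 28565 in the table, with 47 symbols, because PSMA1 and PSMA2 have 2 entries each. Among these symbols PSMC3IP meets the rule by its name alone. It encodes a partner of recombinases in homologous recombination and not a proteasome component. Its values are given apart, which leaves 48 entries of proteasome components, but counts over the 49 entries include it. All 49 entries passed the filter on low counts.

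The libraries fall into 2 groups, cells after 24 h of cisplatin (3 libraries) and cells at 0 h (3 libraries). Cells of both groups had been transfected, with a lipid reagent, with a plasmid that overexpresses the long noncoding RNA called LncR2 in the sample titles. Ribosomal RNA was removed before directional sequencing. Libraries without the plasmid and the dose of cisplatin are not part of what was analysed here, so an effect of the drug cannot be told apart from time after transfection, and nothing here measures the noncoding RNA. The labels name no separate cultures, and the design text speaks of 2 replicates per treatment where 3 libraries are present, so p-values rest on the spread between these libraries, which may be technical. Each library had 6022268 to 7248754 counts in total in the 24 h group and 5028881 to 5844246 in the 0 h group, and intervals rest on 3 libraries per group. The epithelial keratins KRT8 and KRT18 were well expressed (361 ± 40.3 and 255 ± 3.91 CPM, which is counts scaled to a common library size, at 24 h, against 336 ± 29.9 and 233 ± 17.4 CPM at 0 h, as mean ± SD over 3 libraries), as were EPCAM, KRT7 and KRT19 at lower levels (31.8 to 53.0 CPM at 24 h and 35.0 to 53.3 CPM at 0 h on average). The sixth epithelial marker, CDH1 (E-cadherin), had at most 1 count per library, and of 8 markers of the proximal tubule 1, GGT1, passed the filter. Leukocyte markers, which matter because leukocytes are rich in immune-type subunits, summed to 1.79 to 4.27 CPM at 24 h and 2.78 to 3.38 CPM at 0 h. For these sums the counts were scaled by the plain library totals.

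The core particle is a barrel of 4 stacked rings, the outer rings built from PSMA (alpha) subunits and the inner rings from PSMB (beta) subunits. Proteins are cut inside the barrel by PSMB6, PSMB7 and PSMB5, the caspase-like, trypsin-like and chymotrypsin-like subunits. Under interferon, and constantly in leukocytes, these are replaced by PSMB9, PSMB10 and PSMB8, which form the immunoproteasome and favour peptides for antigen presentation. The regulatory cap, made of PSMC ATPases and PSMD subunits, recognises ubiquitin chains, unfolds the substrate and opens the barrel. PSME proteins are alternative activators, PSMF1 binds the core and was first described as an inhibitor, and PSMG proteins are chaperones that help assemble the core. The transcription factor NFE2L1 (NRF1) raises the subunit genes together when proteasome capacity falls short. Proximal tubule cells reabsorb and break down large amounts of protein.

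Promoters of PSMB5 and of the immune subunits PSMB9, PSMB10 and PSMB8 are shown, because the exchange of constitutive for immune subunits is followed here. PSMB6 and PSMB7 had no promoter entry, so only PSMB5 and PSMB8 can be compared as partners. The 250 bases before the RefSeq start were taken from GRCh38.p14 on the strand of the gene, and 41 of the 47 symbols had an entry. PSMB5 lies at chr14:23035221-23035470 (minus strand), PSMB8 at chr6:32844680-32844929 (minus), PSMB9 at chr6:32853942-32854191 (plus) and PSMB10 at chr16:67936851-67937100 (minus). Capitals mark letters that match, on either strand, the antioxidant response element TGACNNNGC bound by NFE2L1 and NFE2L2, the CCAAT box, the interferon-stimulated response element (GAAA, any 2 bases, GAAA) or the gamma-activated site TTCNNNGAA.
PSMB5: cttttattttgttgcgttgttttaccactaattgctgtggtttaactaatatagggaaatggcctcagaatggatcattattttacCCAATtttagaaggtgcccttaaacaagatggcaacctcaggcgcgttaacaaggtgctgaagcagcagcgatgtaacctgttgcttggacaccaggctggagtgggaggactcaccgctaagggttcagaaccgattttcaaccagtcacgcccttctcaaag
PSMB8: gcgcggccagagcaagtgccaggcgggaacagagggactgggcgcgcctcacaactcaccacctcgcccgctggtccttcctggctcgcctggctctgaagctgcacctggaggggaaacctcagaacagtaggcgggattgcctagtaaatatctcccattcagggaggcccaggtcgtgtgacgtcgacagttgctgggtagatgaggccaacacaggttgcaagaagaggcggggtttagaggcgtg
PSMB9: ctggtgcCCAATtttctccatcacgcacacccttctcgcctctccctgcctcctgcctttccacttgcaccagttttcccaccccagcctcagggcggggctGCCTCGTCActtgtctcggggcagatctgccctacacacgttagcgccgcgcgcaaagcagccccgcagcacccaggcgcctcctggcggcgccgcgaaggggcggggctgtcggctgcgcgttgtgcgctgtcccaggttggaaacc
PSMB10: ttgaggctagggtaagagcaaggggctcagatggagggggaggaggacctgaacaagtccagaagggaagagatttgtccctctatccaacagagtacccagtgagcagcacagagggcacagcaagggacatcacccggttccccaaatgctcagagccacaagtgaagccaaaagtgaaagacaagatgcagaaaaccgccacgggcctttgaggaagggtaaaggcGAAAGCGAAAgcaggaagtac
PSMB5 held a CCAAT box, PSMB9 a CCAAT box and a match to the antioxidant response element, PSMB10 a match to the interferon-stimulated response element, and PSMB8 no match to the 4 motifs in this window. The PSMB9 window starts from a RefSeq start that lies 10056 bases inside the longer GENCODE gene. For PSMB10 this distance is 237 bases, so most of its window lies inside the GENCODE gene. It is 24 bases for PSMB8 and 10 bases for PSMB5. Over the 41 promoters, the antioxidant response element was matched in 11 (26.8%, against 10.9% of all 35116 promoters in the table), CCAAT in 18 (43.9% against 32.0%), the interferon-stimulated response element in 5 (12.2% against 3.02%) and the gamma-activated site in 4 (9.76% against 6.57%). The 35116 promoters were not limited to expressed protein-coding genes, as the 41 are, so the sets differ in kind. PSMC3IP is among the 18 with CCAAT. The median log2 fold change was 0.08 for the 11 genes with the antioxidant response element and 0.17 for the 30 without it. It was 0.13 with and 0.16 without a CCAAT box, 0.19 with and 0.13 without the interferon-stimulated response element, and 0.22 with and 0.15 without the gamma-activated site. PSMA2, counted with a CCAAT box and a gamma-activated site, entered these medians by its entry of 6 to 22 counts per library, at -0.11. Its other entry, of 516 to 1248 counts, was at 0.44 and was not used, so these medians depend on that choice. The motif matches are letters in a window and were not tested as binding sites.

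Proteasome genes stood slightly higher at 24 h as a set, and PSMB5, the chymotrypsin-like subunit, was the only one that passed the test. With p-values from edgeR adjusted by Benjamini-Hochberg over 13389 genes, 1 of 49 entries rose (2.04%, against 0.866% of all genes tested) and 0 fell (against 2.08%), while DESeq2 called 2 higher and 0 lower (against 0.904% and 1.9% of all genes). In such bulk libraries fewer cells that express a gene and less of its RNA per cell cannot be told apart. At an unadjusted p under 0.05, 13 entries were higher (26.5%, against 8.22% of all genes) and 0 lower (against 9.93%). The log2 fold change of 24 h over 0 h was above 0 for 44 entries and below 0 for 5, where 49.7% of all genes tested were above 0 and 50.3% below. Its median was 0.16 over the 49 entries and -0.0016 over all genes tested, with a range from -0.13 for PSMF1 to 0.44 for the second PSMA2 entry. In 17 entries every 24 h library lay above every 0 h library (34.7%, against 10.9% of all genes), and in 0 entries the reverse held (against 11.7%). Without PSMC3IP, 12 of 48 entries were higher at an unadjusted p under 0.05 and 43 lay above 0. In 16 of these 48 every 24 h library lay above every 0 h library, and the median was 0.16. For 43 of the 49 entries the 95% interval lay within a 1.5-fold change either way (61.5% of all genes), so larger changes than that were outside the interval for most subunits.

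**Figure D1:**
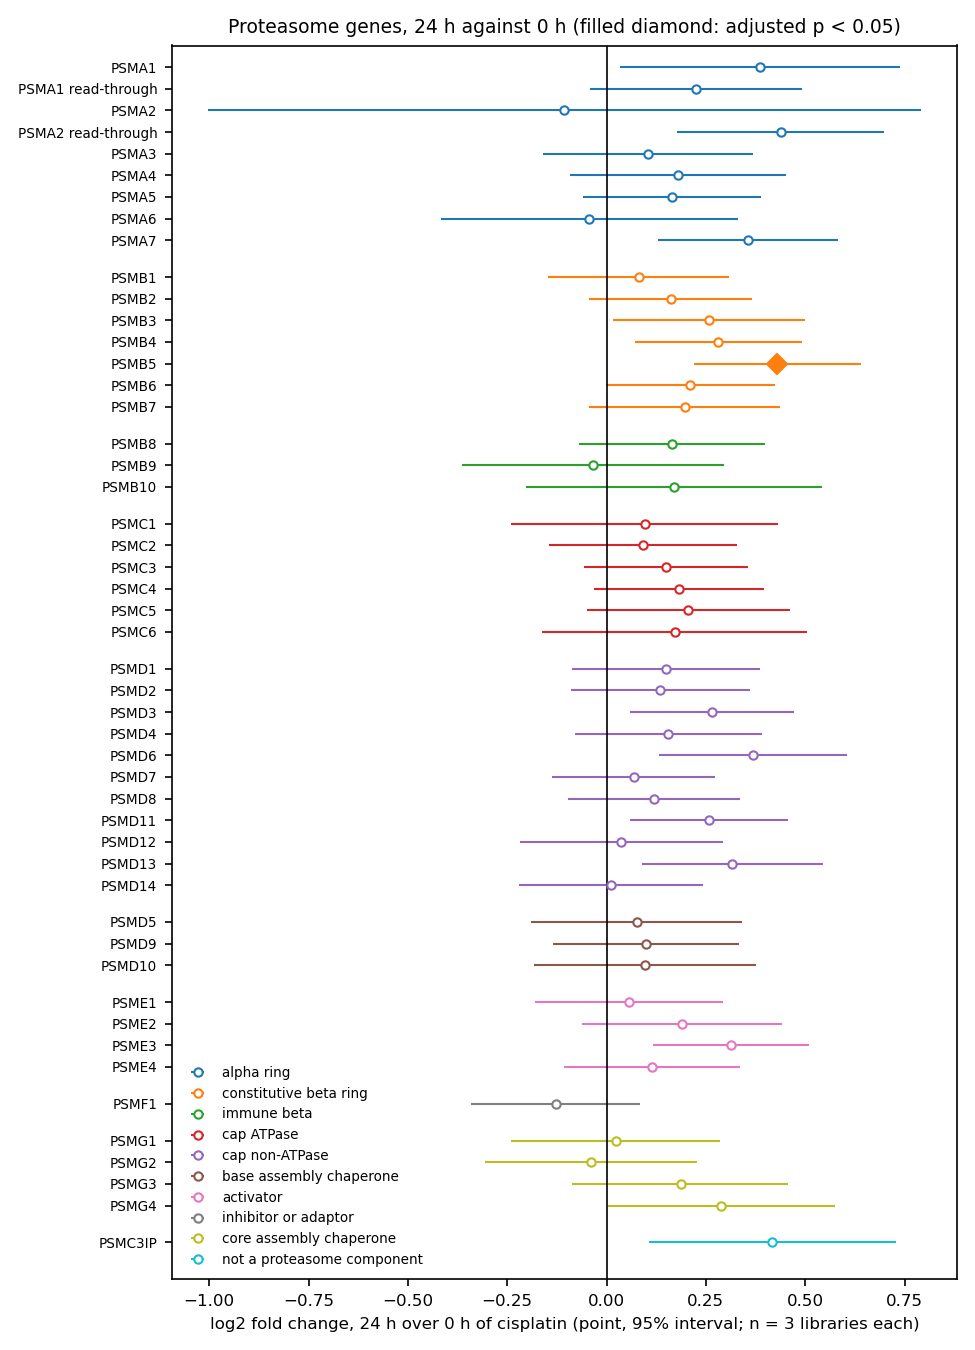
Log2 fold change of 24 h over 0 h of cisplatin for the 49 entries, grouped by role, with 95% intervals from the edgeR fit (n = 3 libraries per group); the filled diamond marks the entry with an adjusted p under 0.05. PSMB5 at 0.43 is the only filled symbol, and 44 of the points lie to the right of 0.

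The set's position differed between libraries of the same group. The summed level of the 49 entries was 6221, 6711 and 6974 CPM in 24 h replicates 1, 2 and 3, against 5767, 5476 and 6297 CPM in 0 h replicates 1, 2 and 3. The groups overlap, since 0 h replicate 3 lay above 24 h replicate 1. Replicate 3 was the highest of its group at both times, and each 24 h library lay above the 0 h library of the same number. Set against 0 h replicates 1 and 2, 0 h replicate 3 was higher in 40 of the 49 entries, with a median of 0.17 on the log2 scale, about the size of the difference between the groups, while the median over all genes tested was -0.0073. Without 0 h replicate 3 the median of the entries was 0.23, with 9 called as higher, and calls over all genes were also more frequent (4.18% higher). Without 0 h replicate 2 it was 0.11 and without 24 h replicate 3 it was 0.11, with 0 entries called in both (0.176% and 0.38% of all genes). What sets 0 h replicate 3 apart was not tested.

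**Figure D2:**
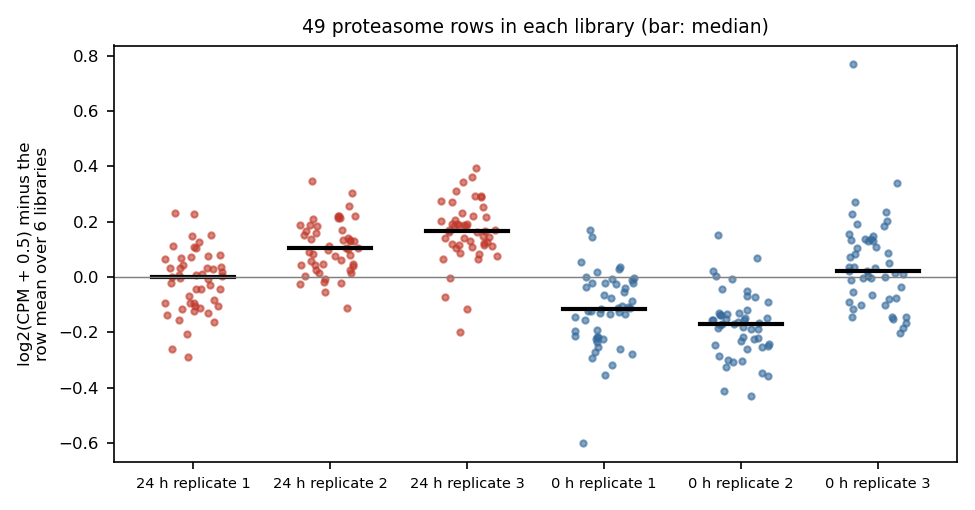
Level of each of the 49 entries in each library, as log2(CPM + 0.5) minus that entry's mean over the 6 libraries, with the median as a bar. The medians are -0.0020, 0.10 and 0.17 in the 24 h libraries and -0.12, -0.17 and 0.02 in the 0 h libraries.

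Scaling also matters for these genes. Scaled by the totals that the deposited FPKM (fragments scaled by gene length and by library total) imply, in place of TMM, the median of all genes moved by 0.24 on the log2 scale, 30 of the 49 entries were called as higher (61.2%, against 17.6% of all genes) and 49 lay above 0. Calls over all genes were 116 higher and 278 lower with TMM (29.4% higher) and 2354 higher and 195 lower with those totals (92.3% higher). Relative to the median of all genes, the median of the entries was 0.17 with either scaling, so changes are given relative to the median gene.

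Among the constitutive beta subunits, all 7 lay above 0, with a median log2 fold change of 0.21 and 1 called higher (against 0.866% of all genes). PSMB5 was at 143, 150 and 156 CPM in 24 h replicates 1, 2 and 3, against 110, 102 and 120 CPM in 0 h replicates 1, 2 and 3. Every 24 h library was above every 0 h library. The log2 fold change was 0.43 ± 0.10 (SE), with a 95% interval from 0.22 to 0.64 (edgeR, Benjamini-Hochberg adjusted p = 0.0283). The gene (ENSG00000100804.18) lies on chromosome 14 from 23016543 to 23035230 in GRCh38. The call was kept without 0 h replicate 3 (adjusted p = 8.33e-04) and lost without any other library (adjusted p from 0.0636 to 0.205), while the fold change stayed between 0.37 and 0.49.

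The other catalytic subunits did not pass. PSMB6, the caspase-like subunit, was at 97.7, 102 and 101 CPM at 24 h, against 92.5, 78.6 and 89.2 CPM at 0 h, a log2 fold change of 0.21 ± 0.10 with no overlap between the groups (edgeR adjusted p = 0.282). PSMB7, the trypsin-like subunit, was at 274, 321 and 349 CPM at 24 h, against 277, 247 and 299 CPM at 0 h, which overlap (0.20 ± 0.11, adjusted p = 0.382 by edgeR). Of the beta subunits without catalytic activity, PSMB4 was highest in fold change at 0.28 ± 0.10, with 295, 326 and 327 CPM at 24 h against 275, 245 and 259 CPM at 0 h (adjusted p = 0.140 by edgeR). PSMB3, PSMB2 and PSMB1 were at 0.26, 0.16 and 0.08. By deposited FPKM, averaged over the 6 libraries, PSMB7 (186), PSMB4 (185) and PSMB1 (164) were the most abundant of this ring and PSMB2 (35.4) the least.

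The immune subunits were present at lower levels and 0 of 3 were called by edgeR, with 0 also at an unadjusted p under 0.05. PSMB8 was at 53.4, 61.8 and 57.6 CPM at 24 h, against 53.4, 47.8 and 53.0 CPM at 0 h (log2 fold change 0.17 ± 0.11). The groups touch, the lowest 24 h and the highest 0 h library being equal to 3 digits. PSMB9 was at 14.8, 20.0 and 16.3 CPM at 24 h, against 16.9, 18.0 and 17.5 CPM at 0 h, with the 24 h libraries on both sides of the 0 h ones (-0.03 ± 0.16). PSMB10 was at 18.6, 18.5 and 13.7 CPM at 24 h, against 17.5, 12.7 and 14.8 CPM at 0 h, which overlap (0.17 ± 0.18). Their 95% intervals ran from -0.07 to 0.40, from -0.36 to 0.30 and from -0.20 to 0.54. DESeq2 likewise called 0 of these 3, and 1, PSMB8, was called with the totals that the FPKM imply.

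**Figure D3:**
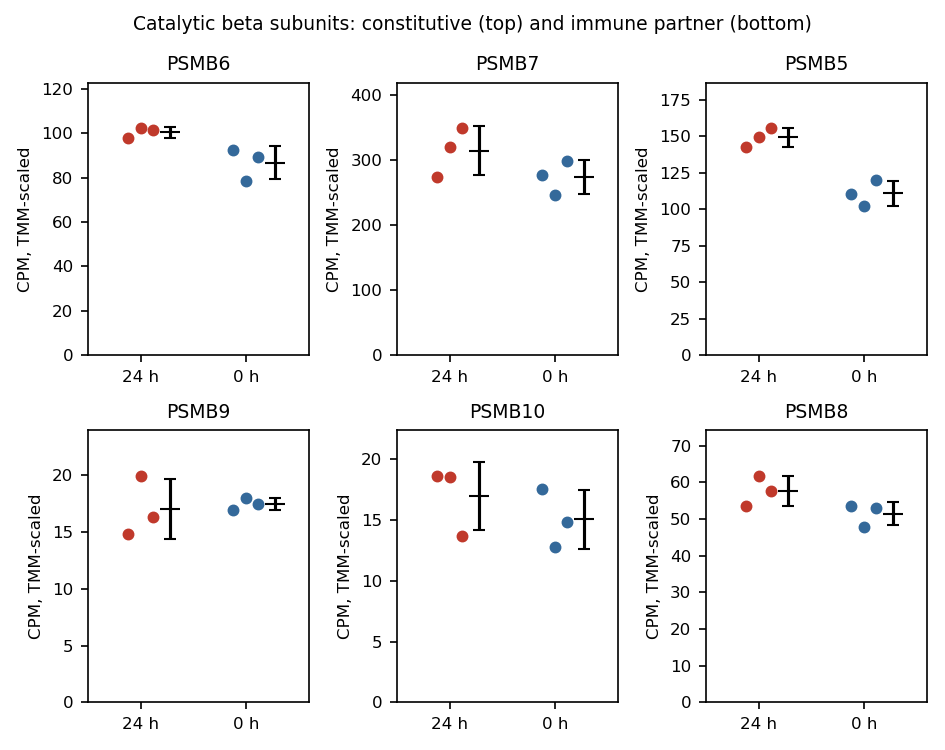
CPM (TMM-scaled) of the catalytic beta subunits in each library, 24 h left and 0 h right, with mean and SD beside the points (n = 3 each); constitutive subunits are above their immune partners. PSMB5 has a mean of 149 CPM at 24 h against 111 CPM at 0 h, while PSMB9 has 17.0 CPM at 24 h and 17.5 CPM at 0 h.

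Ratios of partners within a library do not depend on library scaling. The FPKM of PSMB8 over that of PSMB5, its constitutive partner, was 0.354, 0.390 and 0.350 at 24 h, against 0.457, 0.442 and 0.418 at 0 h. The 24 h libraries were all below the 0 h ones, with means of 0.365 ± 0.0220 at 24 h and 0.439 ± 0.0200 at 0 h (SD, n = 3 each), and with 3 libraries against 3 no permutation test could pass 0.05. PSMB5, the denominator, had a log2 fold change of 0.43 and PSMB8 of 0.17. The lower ratio therefore restates the higher PSMB5 and does not show a fall of PSMB8. PSMB9 over PSMB6 was 0.144, 0.185 and 0.153 at 24 h, against 0.173, 0.217 and 0.186 at 0 h, which overlap. PSMB10 over PSMB7 was 0.0548, 0.0465 and 0.0316 at 24 h, against 0.0509, 0.0415 and 0.0399 at 0 h, which overlap too. At both times each immune subunit was below its constitutive partner in per-length level in all 6 libraries. An unnamed neighbour, CTC-479C5.12, shares exons with PSMB10 on the same strand, and PSMB8 and PSMB9 overlap each other on opposite strands, so the values of these 3 depend on how shared reads were counted.

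**Figure D4:**
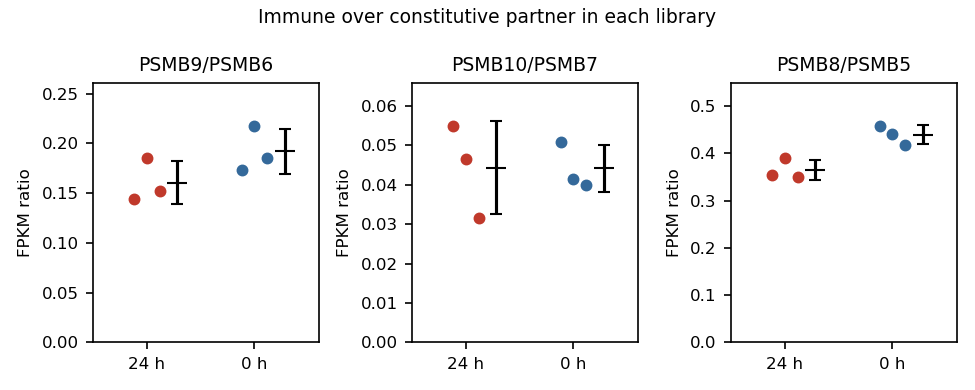
FPKM of each immune subunit divided by the FPKM of its constitutive partner in each library, 24 h left and 0 h right, with mean and SD (n = 3 each). PSMB8 over PSMB5 separates the groups, at 0.350 to 0.390 at 24 h and 0.418 to 0.457 at 0 h, and both other ratios overlap. The log2 fold change was 0.43 for PSMB5, the denominator, and 0.17 for PSMB8.

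In the alpha ring 0 of 9 entries were called by edgeR and 1, the second PSMA2 entry, by DESeq2 (against 0.904% of all genes called higher). At an unadjusted p under 0.05, 3 were higher (against 8.22% of all genes). PSMA7, the most abundant alpha subunit by FPKM (121 over the 6 libraries), was at 324, 372 and 330 CPM at 24 h, against 279, 237 and 285 CPM at 0 h. The groups did not overlap, and the log2 fold change was 0.36 ± 0.11 (edgeR adjusted p = 0.0884). PSMA3, PSMA4 and PSMA5 were at 0.11, 0.18 and 0.16, and PSMA6 at -0.04. Counts of 3 alpha genes are split between overlapping loci. The PSMA1 and PSMA2 entries ENSG00000256206.2 and ENSG00000256646.7 are named AC018523.2 and AC010132.3 in GENCODE 29, where all their transcripts are marked as read-through into a neighbouring gene. They held most of the counts under those symbols, with 124 ± 14.0 CPM at 24 h and 106 ± 18.3 CPM at 0 h for PSMA1, and 158 ± 23.3 CPM at 24 h and 117 ± 13.6 CPM at 0 h for PSMA2. On the same strand AC018523.2 also shares exons with COPB1 (522 to 1117 counts per library) and AC010132.3 with C7orf25 (43 to 114 counts). The values of both entries therefore depend on how shared reads were counted. The entries ENSG00000129084.17 and ENSG00000106588.10, which carry the names PSMA1 and PSMA2 in GENCODE, were lower: PSMA1 had 15.0, 15.3 and 13.6 CPM at 24 h, against 10.6, 10.2 and 12.7 CPM at 0 h, and PSMA2 averaged 2.14 ± 0.654 CPM at 24 h and 2.28 ± 1.42 CPM at 0 h. Summed per symbol, an alternative chosen after seeing the data, PSMA1 was at 0.24 ± 0.12 and PSMA2 at 0.43 ± 0.12 on the log2 scale (adjusted p = 0.307 and 0.0729 by edgeR). PSMA6 had 64, 91 and 109 counts at 24 h, against 68, 61 and 82 counts at 0 h, while RP11-561B11.2, which shares its exons on the same strand, had 654, 772 and 939 counts at 24 h, against 516, 502 and 706 counts at 0 h (log2 fold change 0.10 ± 0.11).

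All 6 cap ATPases, the motor ring that unfolds substrates, lay above 0, from 0.09 for PSMC2 to 0.21 for PSMC5, and 0 were called by edgeR, 0 had an unadjusted p under 0.05 and 0 were called by DESeq2. PSMC4 had the smallest p of this ring, with 95.9 ± 4.19 CPM at 24 h and 84.6 ± 6.19 CPM at 0 h, and PSMC3 the highest level, with 54.5 FPKM over the 6 libraries. All 11 non-ATPase subunits of the cap also lay above 0, with a median of 0.15, and 0 were called by edgeR or DESeq2. At an unadjusted p under 0.05, 4 were higher (against 8.22% of all genes). PSMD6, a lid subunit, was at 133, 151 and 161 CPM at 24 h, against 107, 106 and 130 CPM at 0 h. The lowest 24 h library was above the highest 0 h library, and the log2 fold change was 0.37 ± 0.11 (edgeR adjusted p = 0.0903). Its exons overlap the antisense gene PSMD6-AS2, which had 31, 20 and 36 counts at 24 h, against 43, 45 and 40 counts at 0 h, and was at -0.92 ± 0.25 (adjusted p = 0.0623 by edgeR). PSMD13, another lid subunit, was at 115, 124 and 127 CPM at 24 h, against 107, 85.1 and 102 CPM at 0 h, without overlap (0.32 ± 0.11).

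The lid subunits PSMD3 and PSMD11 were at 0.26 each. PSMD14, the deubiquitinase that removes ubiquitin chains at the pore, was at 0.01 ± 0.11 with an interval from -0.22 to 0.24, and PSMD4, a ubiquitin receptor, at 0.16 ± 0.11. PSMD2, the scaffold to which ubiquitin-like proteins dock, had the highest level of the cap, with 131 FPKM over the 6 libraries and a fold change of 0.14 ± 0.11. The chaperones of cap assembly PSMD5, PSMD9 and PSMD10 were at 0.08, 0.10 and 0.10.

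Of the 4 activators 0 were called by edgeR or DESeq2, with 1 higher at an unadjusted p under 0.05 (against 8.22% of all genes). PSME3, the nuclear activator, was at 138, 139 and 146 CPM at 24 h, against 115, 114 and 111 CPM at 0 h. The groups were well apart, with a log2 fold change of 0.31 ± 0.09 (edgeR adjusted p = 0.0852). PSME1 and PSME2, which interferon induces together, were at 0.06 ± 0.11 and 0.19 ± 0.12, and PSME4, the large single-chain activator, at 0.11 ± 0.10. PSMF1 had the lowest fold change of the 49 entries, at 78.4, 86.4 and 87.6 CPM at 24 h, against 87.5, 97.6 and 90.9 CPM at 0 h, which barely overlap (-0.13 ± 0.10, adjusted p = 0.549 by edgeR). Of the 4 chaperones of the core 0 were called by edgeR or DESeq2, and 1 was higher at an unadjusted p under 0.05 (against 8.22% of all genes). PSMG4 was at 0.29 ± 0.13, PSMG3 at 0.19 ± 0.13, PSMG1 at 0.02 ± 0.12 and PSMG2 at -0.04 ± 0.13. PSMC3IP, the recombination factor, was at 25.4, 24.7 and 29.5 CPM at 24 h, against 22.5, 16.9 and 20.3 CPM at 0 h, without overlap (0.42 ± 0.15, adjusted p = 0.140 by edgeR).

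The genes are spread over 17 chromosomes. Chromosome 17 holds 8 of them, PSMC3IP included, and chromosome 14 holds 7. The closest pairs are PSMB8 and PSMB9, which overlap on chromosome 6, and PSME1 and PSME2, which are 4.39 kb apart on chromosome 14. Across the 48 component entries, Spearman's rho of the log2 fold change was 0.33 with the mean FPKM and -0.15 with the span of the gene, as descriptions over genes that share the same 6 libraries. Another counted gene shares exonic bases with 24 of the 49 entries, 8 of them on the same strand, and 5 proteasome pseudogenes in the table had at most 6 counts per library.

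Of 20 regulators and partners of the proteasome outside the naming rule, 1 fell and 0 rose (5.00% lower, against 2.08% of all genes tested). At an unadjusted p under 0.05, 2 were lower and 0 higher (against 9.93% and 8.22% of all genes). Of the 20, 14 lay above 0 (against 49.7%), with a median of 0.06, so the list as a whole did not fall. The gene that fell was NFE2L1, the transcription factor that drives the subunit genes when the proteasome is inhibited. NFE2L1 was at 270, 264 and 240 CPM at 24 h, against 388, 381 and 333 CPM at 0 h. All 24 h libraries were below all 0 h libraries, and the log2 fold change was -0.51 ± 0.10, with a 95% interval from -0.73 to -0.29 (edgeR adjusted p = 0.0133). The gene (ENSG00000082641.15) lies on chromosome 17 from 48048329 to 48061487. Leaving out 0 h replicate 2 (adjusted p = 0.0914), 24 h replicate 2 (0.0824) or 24 h replicate 3 (0.0767) ended the call, and scaled by the totals that the FPKM imply NFE2L1 was at -0.27 (adjusted p = 0.119 by edgeR), which is -0.51 relative to the median of all genes.

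DDI2, the protease that releases active NFE2L1 from the endoplasmic reticulum, was at 115, 98.4 and 113 CPM at 24 h, against 150, 136 and 124 CPM at 0 h. The groups did not overlap and the fold change was -0.32 ± 0.11 (adjusted p = 0.116 by edgeR). NFE2L2 (NRF2), the related factor of the oxidative stress response, was at 206, 204 and 215 CPM at 24 h, against 219, 244 and 254 CPM at 0 h (-0.20 ± 0.10, adjusted p = 0.303 by edgeR). NGLY1, which removes sugars from NFE2L1, was at 0.08 ± 0.12. POMP, the chaperone that completes the core, was at 123, 134 and 155 CPM at 24 h, against 102, 107 and 139 CPM at 0 h (0.24 ± 0.12), and ADRM1, a ubiquitin receptor of the cap, at 0.09 ± 0.10.

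**Figure D5:**
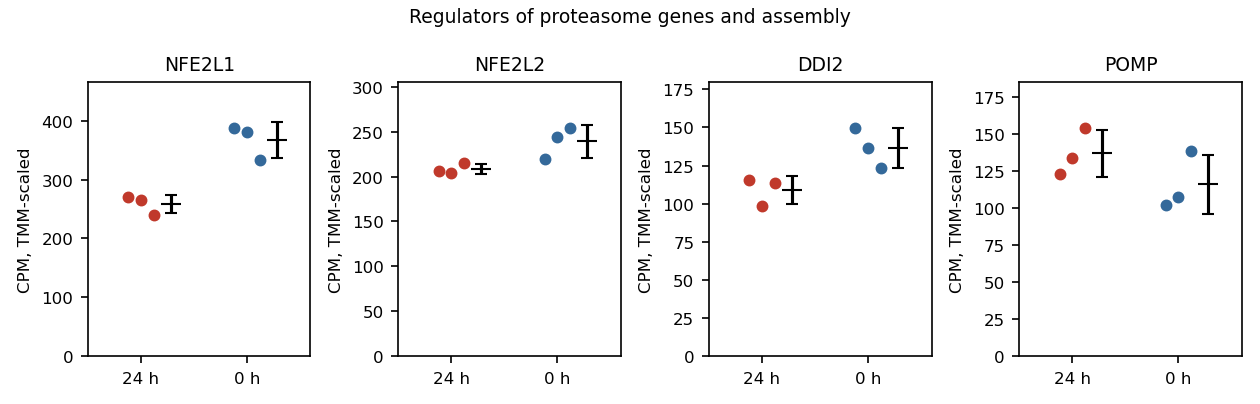
CPM (TMM-scaled) of NFE2L1, NFE2L2, DDI2 and POMP in each library, 24 h left and 0 h right, with mean and SD (n = 3 each). NFE2L1 has a mean of 258 CPM at 24 h against 367 CPM at 0 h, and its groups do not overlap.

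Of 24 tested genes of ubiquitin supply and delivery to the proteasome 0 were called by edgeR or DESeq2. At an unadjusted p under 0.05, 4 were higher and 1 lower (against 8.22% and 9.93% of all genes), and 20 lay above 0 (against 49.7%), with a median of 0.14. The ubiquitin gene UBB was at 0.15 ± 0.10, and the smallest p-values were those of FAF1, an adaptor of the segregase VCP (-0.39 ± 0.14), and UFD1, a ubiquitin-binding partner of VCP (0.28 ± 0.10). Of 18 tested genes of antigen processing and interferon response, which include genes usually induced together with the immune subunits, 0 were called by edgeR or DESeq2. At an unadjusted p under 0.05, 3 were higher and 1 lower, where 8.22% of all genes were higher and 9.93% lower, and the median was 0.11. TAP1, the peptide transporter that shares a promoter region with PSMB9, was at 0.18 ± 0.14, the transcription factor IRF1 at 0.09 ± 0.14, and the smallest p-value was that of the ubiquitin-like ISG15 (0.42 ± 0.17).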

How the data were processed

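The deposited read counts per gene are whole numbers, 1 column per library, and the deposited FPKM values are rounded to hundredths by the authors. The submitters' processing notes name TopHat2, bcl2fastq and edgeR as tools and GRCh38 as the build. Not given in the sources used here are their versions, the counter, whether it used strand and what it did with multiply mapped reads, which bear on overlapping genes and on genes with pseudogenes.

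The 24 h libraries (n = 3) were set against the 0 h libraries (n = 3) in R 4.3.3 with the quasi-likelihood F-test of edgeR 4.0.16, TMM scaling and default filterByExpr, which left 13389 genes. A call is a Benjamini-Hochberg adjusted p under 0.05; DESeq2 1.42.0 and limma 3.58.1 served as alternatives. Dispersion corresponded to a common coefficient of variation of 0.103. Each fold change is a log2 value, 24 h over 0 h, ± SE, and CPM uses TMM-scaled totals of the deposited counts, except in the leukocyte sums, which use unscaled totals. FPKM served for levels between genes and for ratios, and for limma on log2(FPKM + 1). Exon overlaps of at least 1 base and positions come from GENCODE 29, promoters from RefSeq.

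The genes and lists were chosen with earlier results of these data known, so no p-value was computed over a list. A further promoter motif, for YY1, was searched after the PSMB5 promoter had been read and is not reported for that reason. Named were called genes, the catalytic subunits, the 2 smallest p-values and the highest FPKM in each role, the extremes, and fixed regulators, some of which are not reported here; other subunits are examples. Alternatives were RLE, upper-quartile and unscaled totals, totals implied by the FPKM (from 3572 genes with more than 300 counts in each library), other filters, protein-coding genes alone, robust dispersion, DESeq2, limma, a replicate block, and leaving out each library.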

Additional observations from a re-analysis of the deposited data

How the results depend on the processing

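PSMB5 and NFE2L1 kept their direction in every alternative run. Both were called with RLE, upper-quartile and total-count scaling, both other filters, protein-coding genes alone, robust dispersion, DESeq2 and the replicate block. PSMB5 was also called with limma on log2(FPKM + 1) and with the totals implied by the FPKM, whereas NFE2L1 was not (-0.26 and -0.27). Both of these runs rest on the deposited FPKM, and the median of all genes was at 0.18 and 0.24 in them. Relative to that median NFE2L1 was at -0.44 and -0.51 and PSMB5 at 0.48 and 0.43. The cause of the differences in calls was not tested, except that the scalings differ by construction in the level set as unchanged.

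With the totals implied by the FPKM, 2354 genes (17.6% of all genes tested) were called higher, among them 30 proteasome entries, 3 regulators, 13 ubiquitin genes and 8 of antigen processing, and 0 regulators lower. Median log2 fold changes were then 0.40 over all entries, 0.42 for the alpha ring, 0.45 and 0.40 for constitutive and immune beta subunits, 0.40 and 0.39 for cap ATPases and non-ATPases, 0.34 for cap chaperones, 0.39 for activators, 0.11 for PSMF1 and 0.35 for core chaperones. With limma, 1657 genes (12.4% of all genes tested) were called higher and 138 lower, with 15, 2, 9 and 3 higher in those lists and 0 regulators lower. Medians were then 0.38, 0.40, 0.44, 0.36, 0.38, 0.38, 0.31, 0.36, 0.10 and 0.31 in the same order. With no filter, 345 genes (1.21%) and 4 entries were called higher and the median of core chaperones was 0.15, and DESeq2 called 2 entries higher (against 0.904% of all genes).

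Without 1 library, all genes gave 21 to 574 higher (0.153% to 4.18% of those tested) and 92 to 923 lower. Proteasome entries gave 0 to 9 higher, regulators 0 to 1 higher and 0 to 2 lower, and ubiquitin genes 0 to 1 higher and 0 to 1 lower. Medians ran from 0.062 to 0.19 for immune subunits, 0.091 to 0.26 for cap ATPases and 0.052 to 0.18 for core chaperones. The differences in the ratios of immune to constitutive subunits moved by less than 1 SD between libraries with CPM in place of FPKM and without each library, though that of PSMB10 over PSMB7, near 0, changed sign.

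Whether libraries with the same number share more than the number, such as a batch, is not stated and was not tested. Their deviations correlated at 0.24, -0.02 and 0.42. The 24 h replicates 1 and 3 correlated best with their own number, and 24 h replicate 2 did not. For 24 h replicate 1 the margin was small, with 0.23 for 0 h replicate 2. With the replicate block, 739 genes (5.52% of all genes tested) were called higher and 959 lower. Among them were 11 of the 49 proteasome entries, 1 regulator and 4 ubiquitin genes higher and 2 regulators and 1 ubiquitin gene lower. Depth limits the entries with few counts, such as PSMA2 (log2 fold change -0.11 ± 0.42).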
